A study of Mus musculus with 24 samples.

Results

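The carriers of glucose, phosphate, bicarbonate and carboxylates in the kidney's proximal tubule, with a scaffold gene, were followed through ureter obstruction and its reversal. The 10 genes were given by symbol (Slc5a2, Slc2a2, Slc34a1, Slc34a3, Pdzk1, Slc9a3, Slc4a4, Slc5a12, Slc5a8 and Slc13a3), and 10 of 10 had a row among the 14785 genes of the deposited table. RNA sequencing was performed on 24 kidneys, 4 in each of 6 groups, from male C57/BL6 mice labelled 8 weeks of age, and no group carried a genetic change. Sham animals had surgery without ligation, UUO2 and UUO7 animals were culled 2 and 7 days after unilateral ureter obstruction (UUO, ligation of a ureter), and in R1W, R2W and R4W the ureter was reimplanted after 7 days of obstruction and the kidney left to recover for 1, 2 or 4 weeks. The sequenced animals are a selection from larger groups, and the series' title names the cortex while the sample labels name the kidney.

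The proximal tubule takes back nearly all the glucose and much of the phosphate and bicarbonate that the glomerulus filters. Carriers in the brush border move each solute into the cell with sodium or in exchange for it, a second set on the basolateral side lets the solute out, and the sodium pump keeps the gradient that drives them. Scaffold proteins under the brush border hold several of the carriers in place. Loss of these genes' mRNA is a known feature of injured proximal tubule cells.

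The first of the start regions of Pdzk1 is shown because it held a short site of HNF4, a transcription factor known for proximal tubule identity, whose own mRNA (Hnf4a) is given further on. Sequences are from RefSeq on GRCm38.p6, which held 8 of the 10 members (10 starts) and did not list Slc5a2 or Slc5a12. The HNF4 site, CAAAGTCCA, was searched on both strands of 300 bases per start, and was chosen with these letters in view. It stood in 0.475% of 32851 such regions and, among the members, only at Pdzk1, in 1 of the 2 start regions of that gene. A half-site of HNF1, another transcription factor, was searched too. It stood in 7.1% of these regions and, among the members, only at Slc34a1. A match describes these letters and does not show that a factor is bound. Capitals mark the match, the last 9 bases shown, on the plus strand at chr3:96830079-96830087. Of the 300 bases searched, 250 before the start and 50 after it, the first 273 are shown, chr3:96829815-96830087. The match thus lies after the start.
Pdzk1: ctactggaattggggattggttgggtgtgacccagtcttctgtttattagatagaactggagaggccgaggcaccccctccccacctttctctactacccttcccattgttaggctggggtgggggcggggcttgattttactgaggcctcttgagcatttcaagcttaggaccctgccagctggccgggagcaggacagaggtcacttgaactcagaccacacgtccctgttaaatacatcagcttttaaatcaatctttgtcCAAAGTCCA

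All values are FPKM, fragment counts divided by transcript length and by library depth, a unit inferred here from the values, so levels are comparable between genes per length. Summed FPKM ran from 717415 to 830179 per library, and the number of reads behind each value was not derived here. FPKM is relative to the library: on log2(FPKM + 1) the median gene stood 0.42 higher in UUO7 than in sham, a shift that rescaling by the median ratio took to 0.01. Rescaling also moved the calls over all genes in UUO7 against sham from 60.1% higher and 17.8% lower to 36.5% each. Sham replicate 2 stood apart, with summed adipose markers of 199.5 FPKM against at most 48.5 in the other sham kidneys and summed urothelium markers of 34.2 against at most 2.31. Without it, the number of members called was the same in each comparison with sham. R4W replicate 1 stood apart too, with adipose markers of 1029 FPKM against at most 210.2 in the other R4W kidneys, and it was the lowest of its group for 5 of the 10 members. Without it, 10 of 10 members were still called higher than in UUO7 and 10 of 10 lower than in sham, and the 3 called between R1W and R4W became 2. The series' design text speaks of 20 libraries sequenced together where 24 are given, and the sample descriptions of the UUO2 libraries take another form than those of the other 20, so a difference between sets of libraries cannot be told apart from 2 days of obstruction. Summed proximal tubule markers (12 of 12 with a row) ran from 10232 to 12122 FPKM in sham, so the defining markers of the labelled tissue were present.

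Slc34a1 encodes NaPi-IIa, the main brush border sodium-phosphate cotransporter, and was the most abundant member. It measured 2819, 2548, 2992 and 2698 FPKM in the 4 sham kidneys, 1183, 1742, 969 and 1029 in UUO2, and 715, 705, 608 and 575 in UUO7. After 1 week of recovery it measured 1371, 823, 962 and 1275, after 2 weeks 940.3, 1795, 887 and 1438, and after 4 weeks 1562, 1271, 1764 and 1842. Sham lay above every other group without overlap, and each kidney of the 3 recovery groups lay above all 4 UUO7 kidneys. On log2(FPKM + 1), on which every fold change here is given, Slc34a1 fell by 1.20 ± 0.21 (SE) in UUO2 (limma adjusted p = 8.46e-05) and by 2.09 ± 0.21 in UUO7 (1.70e-08). Between UUO7 and R4W it rose by 1.30 ± 0.21 (6.91e-05), and it was still lower than sham by 0.79 (log2 fold change -0.79, adjusted p = 0.00263). In bulk tissue, fewer proximal tubule cells and less mRNA per cell cannot be told apart, here and in every result that follows.

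Slc34a3 encodes NaPi-IIc, the second brush border phosphate cotransporter, and ran at a far lower level: 25.15, 24.0, 28.5 and 26.3 FPKM in sham and 4.69, 5.80, 4.53 and 3.51 in UUO7. UUO2 kidneys were between, at 14.4, 12.7, 13.9 and 11.6, with no overlap on either side. In R4W the 4 kidneys measured 11.1, 12.8, 13.25 and 12.6. The log2 fold change against sham was -0.93 ± 0.18 in UUO2, -2.27 ± 0.18 in UUO7 (adjusted p = 5.37e-10) and -1.0 ± 0.18 in R4W. Pdzk1 encodes a scaffold of PDZ domains that binds NaPi-IIa and other carriers. It measured 667, 561, 631 and 607 FPKM in sham, 387, 577, 324 and 329.6 in UUO2, 217, 219, 199 and 191 in UUO7, and 345.5, 305, 345 and 394 in R4W. UUO2 replicate 2 overlapped the sham kidneys, while the other 3 UUO2 kidneys did not. Pdzk1 fell by 1.57 ± 0.18 in UUO7 (adjusted p = 8.34e-08). Exons of Pdzk1 share 1333 bases (37.5% of its own) with Gpr89 on the opposite strand, and whether the counting used strand is not given in the sources used here. Gpr89 was listed at a mean of 9.16 FPKM in sham and 9.02 in UUO7, against 617 and 207 for Pdzk1. Exons of Slc34a1 likewise share 545 bases (11.7%) with Pfn3, at 71.4 FPKM in sham and 25.9 in UUO7.

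Slc5a2 encodes SGLT2, the sodium-glucose cotransporter that carries most filtered glucose into the early proximal tubule cell. It measured 308, 291, 336 and 302 FPKM in sham, 233, 205, 200.2 and 188 in UUO2, and 105.5, 95.3, 103 and 100.4 in UUO7. The 3 groups did not overlap, and the UUO7 kidneys lay close together. R1W kidneys measured 169.7, 113, 165 and 138, R2W kidneys 134, 198, 103 and 187, and R4W kidneys 151, 132, 179 and 175. The log2 fold change was -0.58 ± 0.16 in UUO2 (adjusted p = 0.00451), -1.60 ± 0.16 in UUO7 (1.26e-08) and -0.96 ± 0.16 in R4W (2.80e-05), each against sham. Exons of Slc5a2 share 597 bases (20.6%) with BC017158 on the opposite strand, listed at 16.8 FPKM in sham and 17.4 in UUO7.

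Slc2a2 encodes GLUT2, the basolateral carrier through which glucose leaves the cell. It measured 53.7, 55.5, 66.5 and 57.8 FPKM in sham and 58.7, 55.1, 63.15 and 49.2 in UUO2, 2 sets of values that overlap. In UUO7 it measured 22.2, 30.3, 20.85 and 19.9, below all sham and UUO2 kidneys. R4W values were 29.4, 31.7, 33.97 and 38.8. The difference at 2 days was -0.05 ± 0.15 (adjusted p = 0.832) and at 7 days -1.30 ± 0.15 (1.58e-07). Between UUO2 and UUO7 it fell by 1.26 ± 0.15 (5.97e-07).

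Slc9a3 encodes NHE3, the brush border sodium-proton exchanger on which bicarbonate recovery depends. It measured 32.45, 31.5, 33.96 and 31.8 FPKM in sham, 17.1, 24.6, 15.1 and 14.9 in UUO2, and 7.13, 7.99, 4.92 and 7.47 in UUO7, with no overlap between the 3 groups. R4W values of 16.3, 18.85, 17.5 and 21.5 lay above UUO7 and below sham. Slc9a3 fell by 0.85 ± 0.21 in UUO2 (adjusted p = 0.00186) and by 2.10 ± 0.21 in UUO7 (1.15e-08). Slc4a4 encodes NBCe1, the basolateral sodium-bicarbonate cotransporter that completes the path. It measured 94.6, 86.6, 109.5 and 79.0 in sham, 76.7, 102, 79.0 and 63.7 in UUO2, 34.3, 41.2, 29.4 and 38.4 in UUO7, and 45.0, 49.0, 51.1 and 54.1 in R4W. Sham and UUO2 overlapped, and R1W (33.8 to 42.7) and R2W (30.1 to 45.7) overlapped UUO7. Its log2 fold change was -0.21 ± 0.14 in UUO2 (adjusted p = 0.242) and -1.34 ± 0.14 in UUO7 (3.97e-08).

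Slc5a8 and Slc5a12 encode the high-affinity and low-affinity sodium-coupled carriers of lactate and other monocarboxylates in the brush border. Slc5a8 measured 65.6, 46.8, 71.4 and 61.4 FPKM in sham, 13.65, 36.6, 12.3 and 11.4 in UUO2, and 12.0, 12.5, 8.59 and 10.2 in UUO7. In UUO2 all but replicate 2 were within 2 FPKM of the highest UUO7 kidney. Slc5a12 measured 40.1, 32.8, 53.4 and 35.4 in sham, 55.3, 62.5, 48.1 and 40.9 in UUO2, and 9.09, 12.8, 5.90 and 8.63 in UUO7. UUO2 was the group of highest mean Slc5a12, at 51.7 ± 9.30 (SD, n = 4) against 40.4 ± 9.14 in sham, and the 2 groups overlapped. Against sham, the log2 fold change in UUO2 was -1.83 ± 0.26 for Slc5a8 (limma adjusted p = 7.70e-06) and 0.35 ± 0.20 for Slc5a12 (0.160). By UUO7 both were lower than sham, by log2 fold changes of -2.39 ± 0.26 (4.26e-08) and -2.05 ± 0.20 (1.42e-08). From UUO2 to UUO7, Slc5a12 fell by 2.41 ± 0.20 (4.99e-09). Slc5a8 differed there by -0.57 ± 0.26 (0.0583), a value that was -0.20 without UUO2 replicate 2 and -0.89 on rescaled values (0.00893). It was also called without UUO2 replicate 3 (-0.69, adjusted p = 0.0337) or UUO2 replicate 4 (-0.73, 0.0228).

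Slc13a3 encodes NaDC3, a basolateral sodium-dicarboxylate cotransporter that loads the cell with citric acid cycle intermediates. It measured 214, 226, 197 and 179 FPKM in sham, 180.3, 201, 131 and 149.9 in UUO2, and 54.9, 49.5, 40.2 and 33.5 in UUO7. Sham and UUO2 overlapped, and UUO7 lay below both. R4W values were 125, 97.2, 126 and 142. The log2 fold change against sham was -0.31 ± 0.25 in UUO2 (adjusted p = 0.309), -2.19 ± 0.25 in UUO7 (7.37e-08) and -0.74 ± 0.25 in R4W (0.0124).

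**Figure D1:**
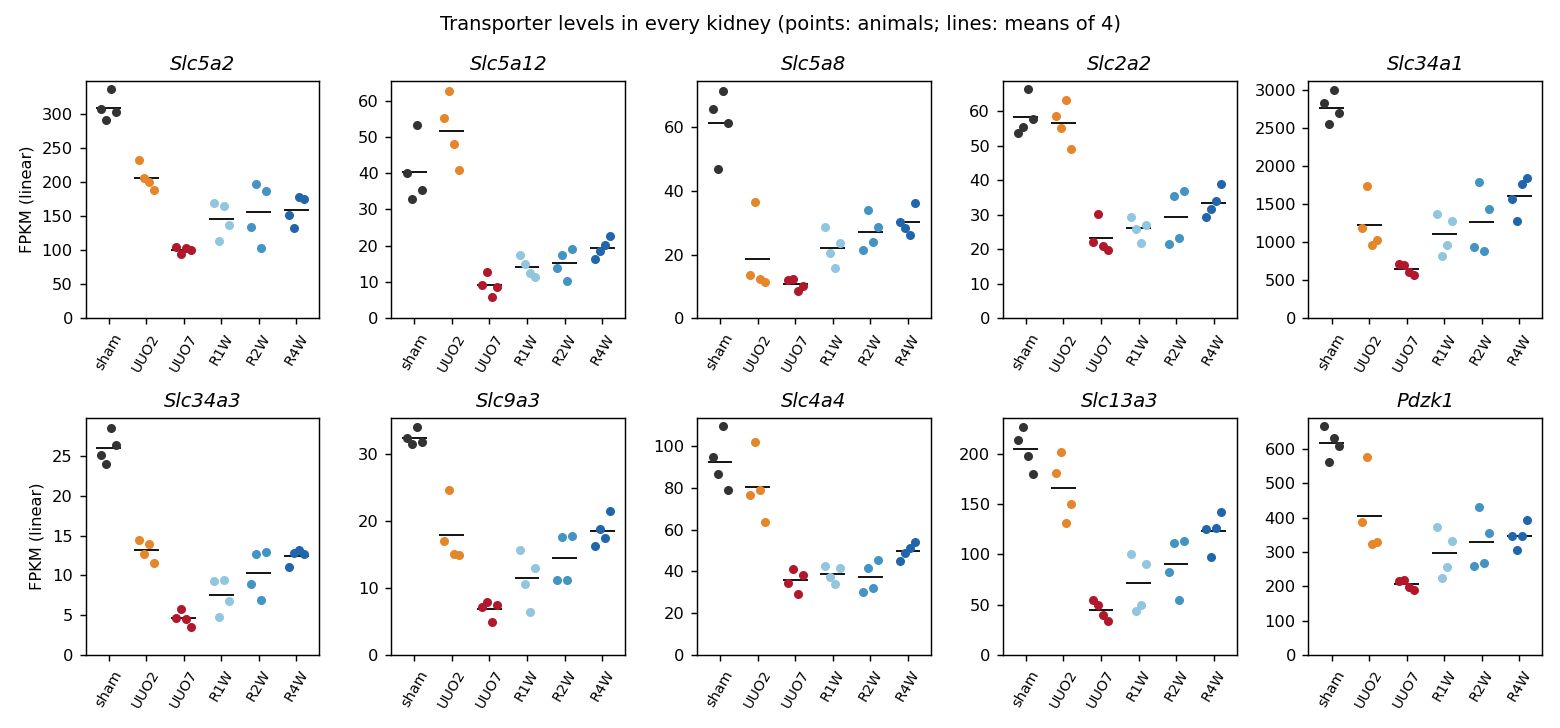
Level of each of the 10 genes in FPKM (linear axis from 0, a separate scale per gene) in the 24 kidneys, by group. Points are animals and lines are means of 4. In every panel the UUO7 mean is the lowest and the sham kidneys lie above all R4W kidneys, while UUO2 overlaps sham for Slc5a12, Slc2a2, Slc4a4, Slc13a3 and Pdzk1.

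The comparisons with sham share the same 4 control kidneys, and those with UUO7 share its 4 kidneys. At 2 days limma called 6 of the 10 genes lower (Slc5a2, Slc5a8, Slc34a1, Slc34a3, Slc9a3 and Pdzk1), where 17% of all genes tested were called lower, and 5 of the 10 lay wholly below sham, where 14.4% of all genes did. The 4 not called were Slc5a12, Slc2a2, Slc4a4 and Slc13a3. At 7 days 10 of 10 were called lower and lay wholly below sham, against backgrounds of 17.8% called and 16.8% without overlap. Their median log2 fold change was -2.07, between -2.39 (Slc5a8) and -1.30 (Slc2a2), and -2.54 on rescaled values. Between 2 and 7 days 9 of 10 were called lower (14.7% of all genes), Slc5a8 being the exception, with 10 of 10 on rescaled values (31.9% of all genes). The share of the mean FPKM fall at 7 days that was already present at 2 days was 84.8% for Slc5a8, 72.6% for Slc34a1, 60.1% for Slc34a3, 56.8% for Slc9a3, 51.8% for Pdzk1 and 49.3% for Slc5a2. It was 24.1% for Slc13a3, 21.4% for Slc4a4 and 5.23% for Slc2a2, and for Slc5a12 it was -36.0%, since its mean was higher than sham. The low shares were loosely held when each kidney was left out in turn, an alternative added after the data were seen. That of Slc4a4 was 11.5% without UUO2 replicate 4 and 34.1% without UUO2 replicate 2, and it also moved by over 1.5 times without sham replicate 3. That of Slc2a2 ran from -2.67% without sham replicate 3 to 11.5% without UUO2 replicate 3, and moved as much without sham replicate 1 or UUO2 replicate 4. That of Slc5a12 reached -57.8% without sham replicate 3, and that of Slc13a3 ran from 16.9% to 31.5%. Over these fits the shares of the 4 genes not called stayed at or below 34.1% (Slc4a4) and those of the 6 called genes at or above 45.2% (Pdzk1). The 4 are the basolateral carriers Slc2a2, Slc4a4 and Slc13a3 and the brush border carrier Slc5a12, which was lowest, at -57.8% to -24.5%. This grouping follows the 2-day calls and was seen after the values were known.

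**Figure D2:**
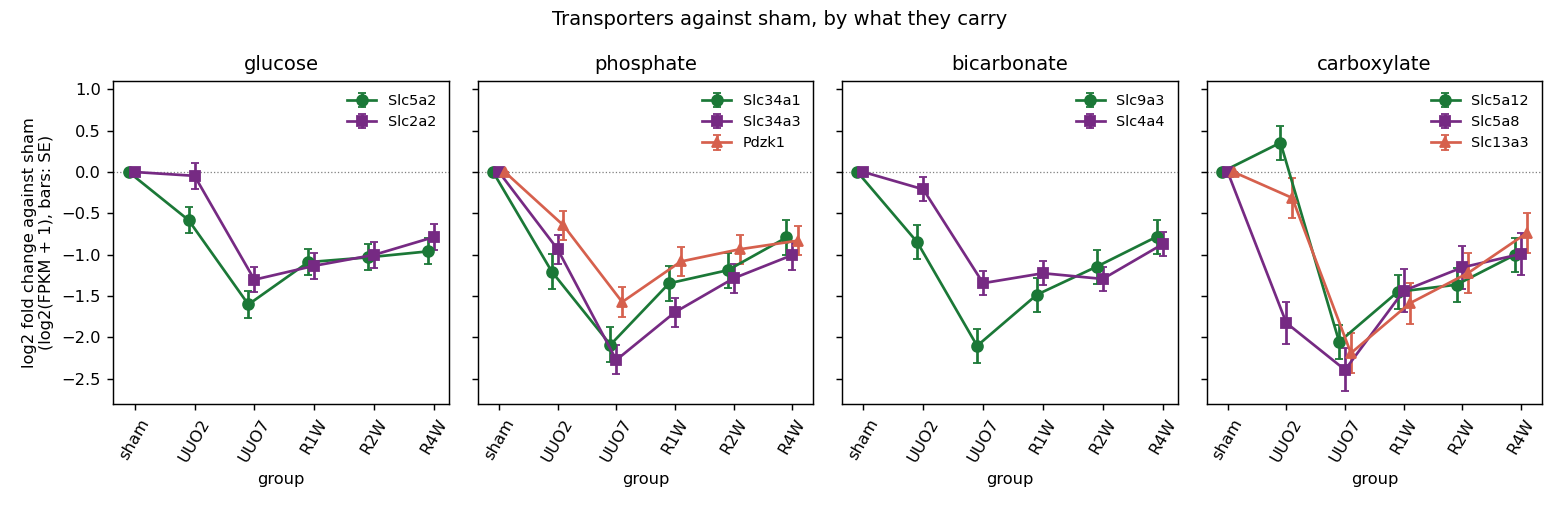
Log2 fold change of each gene against sham on log2(FPKM + 1) by group, in panels by what the protein carries or, for Pdzk1, anchors; points are limma estimates and bars are SE. All 10 genes are at their lowest in UUO7, at -2.39 to -1.30, and remain at -1.0 to -0.74 in R4W, while at UUO2 they spread from -1.83 (Slc5a8) to 0.35 (Slc5a12).

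In the first week after reversal limma called 5 of the 10 genes higher than in UUO7 (Slc34a1, Slc34a3, Slc5a2, Slc5a8 and Slc9a3), where 6.47% of all genes were called higher, and 4 lay wholly above UUO7 (7.78% of all genes). This count was 3 on rescaled values (7.26% of all genes) and between 0 and 6 when single kidneys were left out. It was 0 without UUO7 replicate 3, R1W replicate 1 or R1W replicate 4, 1 without UUO7 replicate 4 and 2 without UUO7 replicate 1. At 4 weeks 10 of 10 were called higher than in UUO7 (17.6% of all genes), and 9 lay wholly above it (17.9%). The median gain was 1.16, from 0.47 ± 0.14 for Slc4a4 (adjusted p = 0.0107) to 1.45 ± 0.25 for Slc13a3 (9.67e-05). Between R1W and R2W, 0 of the 10 were called by limma and 1 had an unadjusted p under 0.05, with 0% of all genes called higher and 0.00676% lower. Between R2W and R4W the counts were again 0 and 1, with 0.0406% of all genes called higher and 0.0203% lower. Over the longer step from R1W to R4W, Slc13a3 (0.85 ± 0.25, adjusted p = 0.0225), Slc9a3 (0.70 ± 0.21, 0.0247) and Slc34a3 (0.69 ± 0.18, 0.0126) rose, 3 of 10 against 5.06% of all genes. This count was 1 without R1W replicate 3 or without R4W replicate 4.

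None of the 10 had returned to the sham level. Sham was 1 group for every time point, so it cannot be matched in time to each recovery group. In each of R1W, R2W and R4W, 10 of 10 were called lower than sham, where 14.7%, 12.9% and 11.6% of all genes were, and 10 of 10 lay wholly below it, where 12.9%, 12% and 11.6% did. Median log2 fold changes against sham were -1.39, -1.17 and -0.85 in the 3 groups, and the last was -1.23 on rescaled values. As a share of the sham mean, R4W kidneys averaged 60.2% for Slc13a3, 58.2% for Slc34a1, 57.3% for Slc2a2, 57.1% for Slc9a3, 56.3% for Pdzk1, 53.9% for Slc4a4, 51.6% for Slc5a2, 49.3% for Slc5a8, 48.2% for Slc5a12 and 47.9% for Slc34a3. The highest single R4W value was 69.7% of the sham mean, for Slc13a3. These shares, and those of the loss regained below, are of FPKM without rescaling. Each member stood further below sham on rescaled values. There the R4W log2 fold change was -1.112 for Slc13a3 and -1.365 for Slc34a3, beside -0.74 and -1.0 without rescaling. Of the FPKM lost by day 7, 24.6% (Slc4a4) to 49.0% (Slc13a3) was regained at 4 weeks, with a median of 35.5%, compared with 5.41% (Slc4a4) to 22.6% (Slc5a8) at 1 week. The 1-week share moved by over 1.5 times for 3 genes when single kidneys were left out. It ran from 1.67% to 8.42% for Slc4a4 (moved without UUO7 replicate 2 or 3, or R1W replicate 1 or 3) and from 4.77% to 13.7% for Slc2a2 (UUO7 replicate 2 or 4, or R1W replicate 1), and was 10.7% for Slc13a3 without R1W replicate 1. Slc4a4 had means of 35.8 ± 5.15 FPKM in UUO7, then 38.9 ± 4.14, 37.4 ± 7.52 and 49.8 ± 3.83 after 1, 2 and 4 weeks of recovery (SD, n = 4 each). In the order of group means for all 10 genes, neighbours among R1W, R2W and R4W overlapped, except R4W and R1W for Slc4a4.

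Of the members, 7 in the authors' deposited table were lower in UUO2 than sham at an adjusted p under 0.05, the 6 above and Slc13a3 (log2 fold change -0.40, adjusted p = 0.0293), where 24.4% of all genes with an adjusted p there were lower. The authors' deposited table had 10 lower in UUO7 (37.9% of all genes), and 10 in each of R1W (34% of all genes), R2W (35.4%) and R4W (34.8%) against sham. Of the gains over UUO7, the authors' deposited table had 6 in R1W (10.3% of all genes), 8 in R2W (16.1%) and 10 in R4W (26%). Between R1W and R4W the authors' deposited table had 6 members higher (8.75% of all genes), where 3 were called here, the others being Slc34a1, Slc2a2 and Slc5a12. From UUO2 to UUO7 the authors' deposited table had 10 members lower (33.7% of all genes), where 9 were called here, and Slc5a8 stood there at a log2 fold change of -1.17 (adjusted p = 0.0196). For Slc34a1 in UUO7 against sham the authors' deposited table gave a log2 fold change of -2.67, beside -2.09 here and -2.58 here on rescaled values.

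To see how the carriers moved relative to their own tubule segment, the mean of 10 other proximal tubule genes was subtracted in each library and all genes were fitted again. Among the reference genes were Lrp2, Cubn, Fbp1, Miox, Gatm, Khk, Ass1 and Tmem27, and 10 of 10 fell in UUO7. They were drawn up with results of these data known. Since the reference fell, most genes stand higher relative to it: 90.3% of all genes were called higher in UUO2, 97.2% in UUO7 and 90% in R4W, and 1.26%, 0.595% and 0.183% lower. In UUO7, 4 members were called higher than the reference (Slc2a2 by 0.68 ± 0.17, Slc4a4 by 0.63 ± 0.15, Pdzk1 by 0.41 ± 0.11 and Slc5a2 by 0.38 ± 0.16) and Slc5a8 lower, at -0.41 ± 0.19 (limma adjusted p = 0.0388). The other 5 were between -0.30 and -0.08 and passed no test. The total of 5 called was 3 without sham replicate 1 or without UUO7 replicate 3. In UUO2, a comparison added after the data were seen, 6 members were higher, led by Slc5a12 at 1.39 ± 0.19 and Slc2a2 at 0.99 ± 0.17, and Slc5a8 was lower at -0.79 ± 0.19 (adjusted p = 0.000503). The reference genes themselves ran there from -0.45 (Hnf4a) to -1.94 (Miox) against sham, so these differences are relative to the genes chosen. Lrp2 and Cubn, the reference of an alternative fit, were at -0.88 and -0.61. In R4W limma called 0 of the 10, with 0 at an unadjusted p under 0.05, and the differences ran from -0.22 ± 0.18 (Slc34a3) to 0.04 ± 0.17 (Slc13a3).

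**Figure D3:**
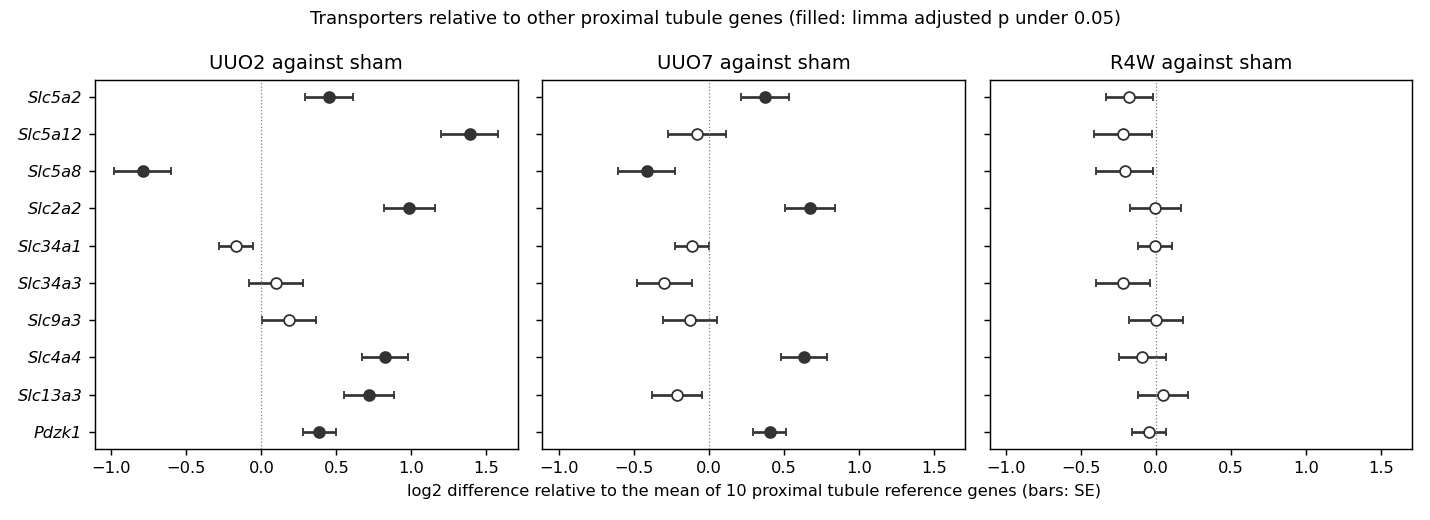
Log2 difference of each gene from sham after subtracting the mean of 10 other proximal tubule genes in each library, for UUO2, UUO7 and R4W; bars are SE and filled points have a limma adjusted p under 0.05. Points spread from -0.79 (Slc5a8) to 1.39 (Slc5a12) in UUO2 and lie between -0.22 and 0.04 in R4W, none of them filled.

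Ratios between members were compared kidney by kidney in 6 pairs (carriers of like solutes, Slc34a1 and its scaffold, and the glucose carrier Slc5a2 against the phosphate carrier Slc34a1), with UUO7 and R4W each set against sham, 12 tests in all. With 4 against 4 kidneys the smallest two-sided exact permutation p is 0.0286, and 0 of the 12 passed after adjustment. The log2 ratio of Slc9a3 to Slc4a4 was -1.47 ± 0.16 (SD, n = 4) in sham and -2.23 ± 0.10 in UUO7, a difference of -0.76 (exact permutation p = 0.0286, adjusted p = 0.0686). That of Slc34a1 to Pdzk1 went from 2.16 ± 0.07 to 1.65 ± 0.06, a difference of -0.52 with the same exact p. In R4W these differences from sham were 0.09 (exact p = 0.371) and 0.04 (exact p = 0.629). The ratio of Slc5a2 to Slc34a1 was at the smallest exact p in both comparisons, with differences from sham of opposite sign, 0.49 in UUO7 and -0.17 in R4W. That of Slc5a2 to Slc2a2 was also at the smallest exact p in UUO7, with a difference of -0.30. In UUO2, tested after the data were seen and adjusted over 18, 5 of 6 pairs were at the smallest exact p, and 0 passed after adjustment. Of these, the log2 ratio of Slc5a12 to Slc5a8 was 1.58 ± 0.56 against -0.60 ± 0.17 in sham, a difference of 2.18 (exact permutation p = 0.0286, adjusted p = 0.0514), with all 4 UUO2 kidneys above all 4 sham kidneys.

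Some animals ranked alike for most of the carriers. In R2W, replicates 2 and 4 were above replicates 1 and 3 for 10 of 10 genes. R1W replicate 1 was the highest of its group for 9 genes, R4W replicate 4 for 8, sham replicate 3 for 8, and UUO2 replicate 2 for 7. The mean log2(FPKM + 1) of the 10 reference proximal genes was also highest of its group in each of these kidneys. In R2W that mean was 8.298 and 8.045 in replicates 2 and 4, and 7.507 and 7.445 in replicates 1 and 3. This order was thus shared by other proximal genes. The ranks were less uniform elsewhere: UUO7 replicate 2 was the highest for 7 genes and the lowest for Slc5a2, and sham replicate 2 was the lowest for 7 and the highest for Slc13a3. Summed injured tubule markers (Havcr1, Lcn2, Krt20, Vcam1, Sox9, Spp1, Krt8 and Krt18, 8 of 8 with a row) ran from 470.0 to 861 FPKM in sham, 15758 to 26845 in UUO2, 16831 to 19469 in UUO7, 6552 to 11097 after 1 week of recovery, 4108 to 7893 after 2 and 2283 to 3367 after 4. Their mean log2(FPKM + 1) was 7.20 ± 0.50 in UUO2, 7.90 ± 0.04 in UUO7 and 6.88 ± 0.27 in R1W (SD, n = 4 each), and all 4 UUO2 kidneys lay below all 4 UUO7 kidneys. The mean of the 10 members was 6.39 ± 0.26 in UUO2, 5.12 ± 0.18 in UUO7 and 5.67 ± 0.26 in R1W. Within groups, after each group's mean was subtracted, kidneys with more injury marker mRNA had less mRNA of the members: Pearson's r was -0.82 and Spearman's rho -0.81 over 24 kidneys. Pearson's r was -0.79 without the 2 kidneys farthest from the median (UUO2 replicate 2 and R4W replicate 4) and -0.77 without the UUO2 group (20 kidneys). Both measures come from the same libraries and share their scaling, and the relation is given as a description.

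**Figure D4:**
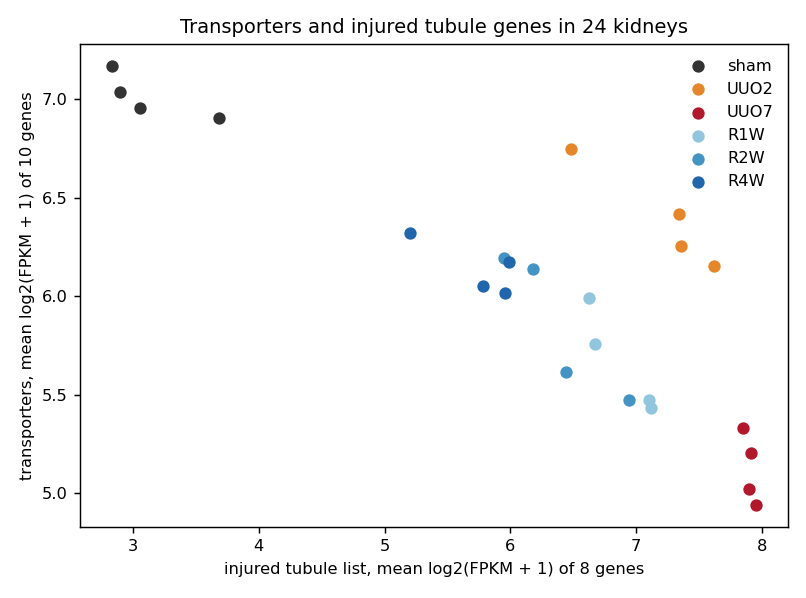
Mean log2(FPKM + 1) of the 10 members (y axis) against that of 8 injured tubule genes (x axis) in 24 kidneys, coloured by group. The UUO2 kidneys lie to the left of all UUO7 kidneys on the x axis, at 7.20 ± 0.50 against 7.90 ± 0.04, and above them on the y axis, at 6.39 ± 0.26 against 5.12 ± 0.18; the recovery groups lie between UUO7 and sham on both axes.

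Markers of other cells moved over the same course. Summed proximal tubule markers had medians of 11562 FPKM in sham, 4592 in UUO2, 2927 in UUO7 and 6477 in R4W. Summed fibroblast markers (5 of 5 with a row) ran from 23.8 to 50.8 FPKM in sham, 454 to 596 in UUO7 and 192 to 277 in R4W, and macrophage markers (5 of 5) from 39.2 to 62.8, 682 to 851 and 574 to 1127. Thick ascending limb markers (4 of 4) had medians of 2096.5 FPKM in sham, 930.0 in UUO2, 1190.2 in UUO7 and 2208 in R4W. Distal and collecting duct markers (6 of 6) had medians of 783, 322, 258 and 1059 FPKM in the same groups, and UUO2 replicate 2 was the highest of its group in both lists, at 1653 and 826. Urothelium markers (5 of 5) had medians of 2.235, 1.795, 19.1 and 89.2 FPKM. No defining marker of these lists was at 0 in all kidneys of a group. The part of these shifts in the carriers' change was not tested.

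The other genes of each pathway were listed with earlier results of these data known, and are described by counts at 7 days against sham, where 17.8% of all genes were called lower and 60.1% higher. Of 14 further glucose genes 11 were lower and 2 higher. The fructose carrier Slc2a5 (log2 fold change -2.55) and G6pc, the last enzyme of glucose release (-2.51), were lowest, and Slc2a1, the widely expressed glucose carrier GLUT1, rose from 20.7 ± 4.41 to 40.3 ± 4.51 FPKM (0.94, adjusted p = 2.41e-07, and 0.47 on rescaled values, adjusted p = 0.000428). Slc2a8 was the other gene called higher (0.52, but 0.08 on rescaled values). Of 15 phosphate genes 6 were lower and 8 higher, or 7 and 6 on rescaled values, where the receptor gene Fgfr1 went from 0.42 to -0.05. Kl, the FGF23 co-receptor klotho, fell from 124 ± 12.0 to 25.3 ± 3.23 FPKM (-2.25), and Cyp24a1, which inactivates vitamin D, fell by 1.23. In the opposite direction, Slc34a2, another phosphate cotransporter of the family, rose from 0.993 ± 0.32 FPKM in sham to 14.8 ± 2.43 in UUO7 (2.98, adjusted p = 8.34e-09) and stood at 6.23 ± 0.997 in R4W. Cyp27b1, which activates vitamin D, rose from 0.89 ± 0.34 to 11.8 ± 3.24 FPKM (2.74).

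Of 18 bicarbonate and ammonia genes 11 were lower and 3 higher. The carbonic anhydrase Car14 fell from 71.2 ± 6.72 to 8.33 ± 3.42 FPKM (-3.01) and the exchanger Slc9a8 from 114 ± 16.7 to 21.3 ± 1.16 (-2.36). Among those called higher was the anion exchanger Slc4a2 (0.52), which was at 0.05 on rescaled values, where limma called 0 of the list higher. Of 12 carboxylate and sulfate genes 8 were lower and 4 higher. The organic anion carriers Slc22a8 and Slc22a6 changed by -3.16 and -2.62. The sulfate carrier Slc13a1 went the other way, at 95.8 ± 3.01 FPKM in sham, 433 ± 128 in UUO2 (2.10, adjusted p = 1.25e-08), 229 ± 21.9 in UUO7 (1.24, or 0.76 on rescaled values) and 93.1 ± 17.0 in R4W. The lactate exporter Slc16a3 rose from 0.42 ± 0.37 to 11.6 ± 2.93 FPKM in UUO7 (3.16). The other two called higher, Slc16a1 (0.30) and its chaperone Bsg (0.19), were at -0.12 and -0.30 on rescaled values. Of the sodium pump genes, Fxyd2 fell by 0.89 and Atp1b1 by 0.72 (-1.38 and -1.20 on rescaled values), and Atp1b3 was called higher (0.46, but -0.02 on rescaled values).

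Of 9 proximal transcription factors 8 were lower and 0 higher by limma. Ppara (-1.77) and Hnf4a (-1.52) were lowest, Maf was at -0.40 (-0.87 on rescaled values), and on rescaled values 9 of 9 were lower. Hnf4a measured 182 ± 19.4 FPKM in sham, 134 ± 27.6 in UUO2, 63.0 ± 8.09 in UUO7 and 99.9 ± 5.10 in R4W.

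Likeness was sought among genes whose mean reached 10 FPKM, and the 6 whose log2(FPKM + 1) followed the mean of the 10 members most closely over the 24 kidneys were Lrp2 (Pearson's r = 0.991) and Cubn (0.989), the receptors megalin and cubilin of protein uptake, then Tex2 (0.984), Kcnj15 (0.983), Xylb (0.982) and Cyp2j5 (0.982). Lrp2 averaged 112 FPKM in sham, 63.0 in UUO2, 21.2 in UUO7 and 53.4 in R4W. The closest gene to Slc34a1 was Slc22a6 (0.989), to Slc9a3 Tcn2 (0.991), to Pdzk1 Aldh8a1 (0.984), to Slc5a12 Nox4 (0.981), to Slc5a8 Acsm5 (0.978) and to Slc13a3 Acad11 (0.962). Slc7a9 was the closest gene to both basolateral carriers Slc2a2 (0.979) and Slc4a4 (0.967), at 64.2 FPKM in sham, 63.7 in UUO2 and 31.6 in UUO7. Kmo was closest to Slc34a3 (0.960) and Pepd to Slc5a2 (0.955). Of the members themselves, Slc5a8 followed the mean least closely (0.801) and Pdzk1 most closely (0.974). These correlations run over libraries that share the 6 groups and are descriptions.

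By the deposited coordinates, which match the GENCODE M21 annotation of GRCm38 for 10 of 10 members, all 10 are protein-coding genes. Slc5a2 lies at chr7:128265657-128272430, Slc2a2 at chr3:28697903-28731359, Pdzk1 at chr3:96829284-96870926, Slc34a1 at chr13:55398187-55415592 and Slc9a3 at chr13:74121457-74169442. Slc34a3 lies at chr2:25228898-25234364, Slc5a12 at chr2:110597298-110647779, Slc13a3 at chr2:165405028-165473230, Slc4a4 at chr5:88886818-89239653 and Slc5a8 at chr10:88885992-88929515.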

How the data were processed

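PolyA-selected RNA of 24 mouse kidneys was sequenced, and the authors deposited 1 table of values per gene and library. The submitters' processing notes name FastQC, RSEM, Bowtie2, DESeq2 and mm10, with no role. The unit of the deposited library columns, FPKM, was inferred from the values, since per the file headers none is named. The authors also deposited log2 fold changes, whose base and direction were inferred, and adjusted p-values for 15 comparisons, per the file headers. The smallest gene mean in the table was 1 FPKM. Counts were not used, so the depth behind each value is unknown.

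Groups came from the sample titles. The treatment label of R4W replicate 2 says 2 weeks, and its placement in R2W was an alternative. A single model of the 24 libraries, with a term per group, was fitted to log2(FPKM + 1) of all genes by limma 3.58.1 under R 4.3.3, with a trended prior variance. The p-values were adjusted over 14785 genes by Benjamini-Hochberg, and genes under 0.05 were called. Fold changes on this scale understate the change of low genes. The fit was tested on simulated data. Pair ratios were tested by exact permutation of 4 against 4 kidneys, two-sided. Python 3.11.15 and pandas 2.3.3 made the tables. Each kidney is 1 animal per the labels, so p-values measure the spread between animals. No columns were identical.

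Members and lists were chosen with earlier results of these data known. Further named genes were, per pathway list, the 2 of greatest and the 2 of least log2 fold change in UUO7 against sham, and up to 2 called against their list's direction. Alternatives were rescaling, pseudocounts of 0.1 and 10, a mean of at least 10 FPKM, fits on the 2 groups or without UUO2, the replicate block, stricter calls and leaving out each kidney. For the fit relative to the reference genes, a reference of Lrp2 and Cubn only was a further alternative. In UUO2, the pair ratios and the fit relative to the reference genes were added after the data were seen. Some listed genes are not reported here.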

Additional observations from a re-analysis of the deposited data

Results flagged for a closer look

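Slc5a8 in UUO2 replicate 2 was 36.6 FPKM, far from the other 3 kidneys of its group (11.4 to 13.65 FPKM) by Dixon's ratio. This was the only value so marked among 60 groups of 4 kidneys, where chance alone marks about 1 in 20. The same kidney was the highest of its group for 7 of the 10 genes.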

How the results depend on the processing

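Over the alternatives other than the stricter calls, the 73 called changes of single members gave 1186 values, of which 0 reversed, 44 no longer passed and 1142 kept their call. With a log2 fold change of at least 1 required, the calls were 2 in UUO2 against sham, 0 in R1W and 6 in R4W against UUO7, 0 in R4W against R1W and 2 in R4W against sham. R1W against UUO7, 5 called, had 3 on rescaled values, with a pseudocount of 10, in the 2 groups only and with the replicate block, 0 at an adjusted p under 0.01, and 0 to 6 when single kidneys were left out. R4W against R1W, 3 called, had 0 in the 2 groups only and at an adjusted p under 0.01, and 1 to 4 by leaving out kidneys. Relative to the reference genes, UUO7 had 3 to 5 by leaving out kidneys, and R4W had 1 in the 2 groups only. Pair ratios past adjustment went from 0 to 5 in UUO7 and 2 in R4W with a pseudocount of 10, and in UUO2 to 5 with a pseudocount of 0.1 or 10 and 0 to 6 by leaving out kidneys (6 without UUO2 replicate 2). The cause was not tested.

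Replicate numbers do not pair the animals: deviations of same-numbered kidneys correlated at means of -0.17 (R4W against sham) to 0.15 (R1W against UUO7). With the replicate block, 4 members were called relative to the reference genes in UUO7, and, apart from R1W against UUO7, the counts of members called stayed within 1.5 times of those reported. Paired ratios cannot go below an exact p of 0.125.

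Values that reversed sign had not been called. Over fits that each left out a kidney, Slc2a2 in UUO2 against sham ran from -0.10 to 0.017. From R1W to R2W, Slc5a2 ran from -0.073 to 0.24, Slc5a12 from -0.030 to 0.25, Slc34a1 from -0.030 to 0.31 and Slc4a4 from -0.17 to 0.026, and Slc4a4 was 0.011 with R4W replicate 2 placed in R2W. From R2W to R4W, Slc5a2 ran from -0.11 to 0.20. The difference of Slc34a1/Slc34a3 was -0.77 in UUO7 and -0.11 in R4W with a pseudocount of 10. That of Slc5a12/Slc5a8 in R4W was 0.058 with this pseudocount and -0.096 to 0.070 over the fits without a kidney, and that of Slc34a1/Pdzk1 in R4W ran from -0.012 to 0.086.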

Other observations

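Some genes beside the carriers were called higher at 2 days and had means nearer to sham or below it at 7 days, a pattern noticed after the values were seen. Maf, a transcription factor, averaged 26.4 ± 2.83 FPKM in sham, 50.8 ± 9.62 in UUO2 (log2 fold change 0.90, limma adjusted p = 1.91e-06) and 19.8 ± 2.10 in UUO7. Car2, the cytosolic carbonic anhydrase, averaged 153 ± 11 FPKM in sham, 243 ± 18.9 in UUO2 (0.66, adjusted p = 1.50e-06) and 136 ± 7.40 in UUO7. The monocarboxylate carrier Slc16a1 averaged 5.68 ± 0.84 FPKM in sham, 11.4 ± 1.26 in UUO2 (0.90, adjusted p = 7.42e-07) and 7.19 ± 0.30 in UUO7. In R4W, Slc16a1 averaged 3.17 ± 0.33 FPKM. Since UUO2 libraries may form a set of their own, the 2-day values and the set cannot be told apart.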
